A study of Homo sapiens with 3 samples.

Results

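SND1 is a gene of chromosome 7 that carried one of the largest loads of MATR3 reads in HEK293, a cell line derived from human embryonic kidney. Its members here are all deposited read clusters with the gene name SND1, which number 670 of the 388807 clusters in the series, with 252, 205 and 213 in replicates 1, 2 and 3. The gene was selected on its share of reads in these same libraries, so its numbers of reads and clusters are given as a description, with no test. MATR3 was profiled by PAR-CLIP, in which cells incorporate a photoreactive uridine analogue, RNA is crosslinked to protein, and the crosslinked uridines are read as T-to-C changes after immunoprecipitation. The 3 libraries are biological replicates of one group, wild-type HEK293 with no treatment, precipitated with an antibody against MATR3. There is no control library and no RNA level here, so strong binding and abundant precursor RNA cannot be told apart. In the whole series a replicate held from 124040 to 133088 clusters and from 1506682 to 1649124 reads.

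MATR3 (matrin 3) is a nuclear matrix protein with RNA recognition motifs and zinc fingers, known as a regulator of splicing that binds pyrimidine-rich stretches in introns. SND1 (staphylococcal nuclease and tudor domain containing 1) is a nuclease and transcriptional coactivator that is also found in the RNA-induced silencing complex, in stress granules and with spliceosomal proteins. The gene SND1 (ENSG00000197157.11) lies on the plus strand of chromosome 7 from 127652194 to 128092609 in hg38 and is 440 kb long. Its main transcript has 24 exons and 23 introns, and exons make up 0.783% of the gene.

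Sequences that were marked in every replicate are shown first. A site is a run of overlapping clusters from any replicate, and of 596 sites 8 drew on every replicate. The 6 of those with the largest geometric mean of reads are printed from 5′ to 3′ on the RNA strand as T-containing DNA letters, in the order of that mean. Capitals mark the bases that lay within a cluster of every replicate.
Site 1, chr7:127731424-127731645, intron 10: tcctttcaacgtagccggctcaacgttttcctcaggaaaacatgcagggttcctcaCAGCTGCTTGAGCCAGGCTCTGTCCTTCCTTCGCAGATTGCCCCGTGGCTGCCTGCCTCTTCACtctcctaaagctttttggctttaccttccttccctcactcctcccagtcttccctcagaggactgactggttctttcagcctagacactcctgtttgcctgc
Site 2, chr7:127726990-127727072, intron 10: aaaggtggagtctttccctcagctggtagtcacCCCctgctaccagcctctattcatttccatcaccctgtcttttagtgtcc
Site 3, chr7:127739973-127740073, intron 10: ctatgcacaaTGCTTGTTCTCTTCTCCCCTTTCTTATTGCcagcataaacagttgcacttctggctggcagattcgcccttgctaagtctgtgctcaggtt
Site 4, chr7:127994125-127994267, intron 16: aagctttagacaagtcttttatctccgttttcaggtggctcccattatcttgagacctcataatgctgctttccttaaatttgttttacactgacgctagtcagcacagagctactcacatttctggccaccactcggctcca
Site 5, chr7:127810365-127810440, intron 11: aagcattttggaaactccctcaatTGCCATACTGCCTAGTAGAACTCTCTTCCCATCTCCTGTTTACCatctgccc
Site 6, chr7:127898377-127898489, intron 13: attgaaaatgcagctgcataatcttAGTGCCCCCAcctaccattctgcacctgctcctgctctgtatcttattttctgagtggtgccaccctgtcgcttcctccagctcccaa

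These 6 sites are rich in C and T, whose joint share ran from 61.5% in site 4 to 66.7% in site 1, while the other two of the 8 had 57.7% and 49.0%. Site 1 had 109, 22 and 44 reads in replicates 1, 2 and 3, and was the only one of the 6 with over 20 reads in every replicate. Its stretch common to all replicates was 64 nt long. Site 3 had 25, 20 and 14 reads, and its 30 common bases hold a long unbroken run of C and T. Site 5 had few reads, at 12, 7 and 12, yet the largest common share of the 6, with 44 of its 76 bases in a cluster of every replicate. Site 4 had 43, 9 and 13 reads and no common base, since the clusters of replicates 2 and 3 each overlapped the long cluster of replicate 1 at different places. Sites 2 and 6 shared 3 and 10 bases. The remaining 2 of the 8 sites had from 5 to 8 reads in each replicate, so even recurrent positions were mostly thinly covered.

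The leading cluster of replicate 1 was site 1, with 109 reads and 35 distinct reads, and those of the other two replicates lay elsewhere. Both are printed as what a single replicate can put first. Capitals here mark every match to 4 motifs searched on this strand: ATCTT, whose RNA form has been described as a preferred motif of the protein, TCTTC and TTTCT, which are pyrimidine runs, and CACGT.
Replicate 2, chr7:127662117-127662249, intron 1: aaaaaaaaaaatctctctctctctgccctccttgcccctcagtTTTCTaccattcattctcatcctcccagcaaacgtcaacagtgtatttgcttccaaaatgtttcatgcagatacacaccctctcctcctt
Replicate 3, chr7:127738783-127738922, intron 10: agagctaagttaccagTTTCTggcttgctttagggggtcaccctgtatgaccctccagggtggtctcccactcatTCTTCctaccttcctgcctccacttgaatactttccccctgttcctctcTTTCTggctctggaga

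The leading cluster of replicate 2 had 35 reads and 19 distinct reads, and that of replicate 3 had 52 reads and 26 distinct reads. Neither overlapped a cluster of another replicate. The one had 1 motif match, to TTTCT, and the other 3, of which 2 were to TTTCT and 1 to TCTTC. C and T made up 66.2% and 66.4% of their bases, within the range of the 6 printed sites.

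Reads were spread thinly over many clusters of SND1. The gene held 2935, 2087 and 2373 reads in replicates 1, 2 and 3, of which 997, 877 and 822 were distinct. Normalised reads, which are reads per 1000000 reads in gene-annotated clusters of a replicate, were 2027, 1571 and 1746. By this measure SND1 ranked 5, 7 and 5 among the 10961 to 11180 nuclear gene names of each replicate. By number of clusters it ranked 2, 4 and 4. The median SND1 cluster had 9 reads in each replicate, against 8 to 9 over all clusters. The 10 clusters with most reads held 13.7% ± 1.04 of the gene's reads (SD, n = 3), and the leading cluster held 3.71%, 1.68% and 2.19%. No single cluster therefore carried the load in any replicate. A support of 2 distinct reads or fewer was found for 29.7% ± 2.23 of the clusters (SD, n = 3).

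In the order of the geometric mean of normalised reads, SND1 stood at place 5, after GRB10 and before THSD4. GRB10 had 2321, 2066 and 2022 normalised reads, above SND1 in each replicate. Its value in replicate 3 was just below the highest SND1 value. THSD4 had 1811, 1592 and 1732, within the range of SND1, so the difference between SND1 and THSD4 was within their spread. SLC7A1, next in order, had 1623, 1281 and 1489, below SND1 in each replicate, although its range overlapped the lowest SND1 value.

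**Figure D1:**
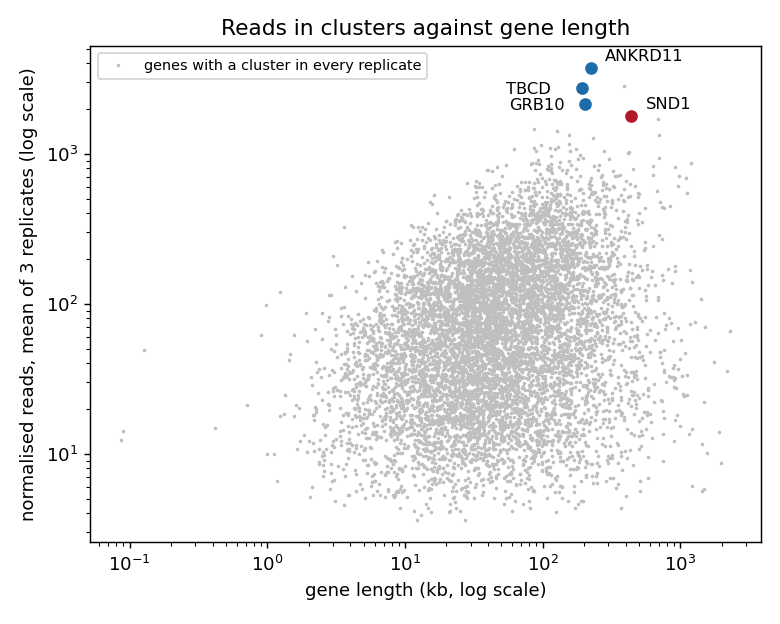
Mean normalised reads over the 3 replicates (vertical, log scale) against gene length in kb (horizontal, log scale) for genes with a cluster in every replicate. SND1 (red, 440 kb) lies near the top, to the right of ANKRD11, TBCD and GRB10 (blue, 194 to 223 kb).

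Per unit of length SND1 carried fewer reads than ANKRD11, TBCD and GRB10. It had 5.07 clusters per 10 kb ± 0.57 (SD, n = 3), and its clusters covered 2.72%, 2.26% and 2.13% of the gene. Normalised reads per 10 kb of gene were 40.4 for SND1, 166 for ANKRD11, 141 for TBCD and 105 for GRB10. SND1 ranked 340 by this density among 614 genes with a mean of at least 300 normalised reads, and the median was 43.9. That limit was chosen after the values were seen. It is a limit on reads, so a short gene passes it only if it is dense. The rank therefore does not place SND1 by density among all genes. For intron clusters alone, it ranked 229 of 952 genes with at least 20 intron clusters in every replicate, with 5.04 clusters per 10 kb against a median of 3.20. By intron clusters SND1 was thus in the upper part of these genes, just above their upper quartile of 4.91. The limit of 20 clusters also admits a short gene only if it is dense. The part of length in the gene's place by reads was not tested.

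Nearly all SND1 clusters lay in introns. Intron clusters numbered 250 of 252, 204 of 205 and 212 of 213 by the authors' annotation. In the whole series, intron clusters of nuclear genes numbered 96497 of 133088, 95588 of 131679 and 90181 of 124040. Exons make up only 0.783% of SND1, so an even scatter over the gene would also leave nearly all clusters in introns. The remaining 4 clusters overlapped exon 1, which holds the 5′ UTR and the start codon. In replicate 1 one spanned 127652196 to 127652343 (24 reads) and one 127652353 to 127652441 (23 reads). The cluster of replicate 2 spanned 127652174 to 127652217 (19 reads) and began upstream of the annotated start, and that of replicate 3 spanned 127652361 to 127652411 (12 reads). Exon 1 was thus marked in every replicate, but at no position common to all of them. No cluster overlapped any other exon, among them the last, which holds the 3′ UTR. The tables list nothing under 4 reads, so weaker binding to spliced SND1 RNA was not detectable.

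Clusters kept to the sense strand of SND1. The minus strand of the gene had 0 clusters in each replicate, although chromosome 7 as a whole had from 3142 to 3433 minus-strand clusters and from 3387 to 3669 plus-strand ones. Within 50 kb downstream of the gene the plus strand had 0, 0 and 1 clusters, and within 50 kb upstream it had 0 in each.

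Other genes lie inside SND1. LRRC4, a gene for a leucine-rich repeat adhesion protein on the minus strand within intron 16, had 0 clusters on its own strand in each replicate. SND1-IT1, a long non-coding RNA on the plus strand of intron 16 (127997597 to 128000077), coincided with 3, 2 and 1 plus-strand clusters, all given to SND1 in the files. These reads cannot be told apart from SND1 intron reads. MIR593, a microRNA gene in intron 18, had none in each replicate, and a processed pseudogene on the minus strand of intron 12 coincided with 1, 2 and 1 plus-strand clusters.

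**Figure D2:**
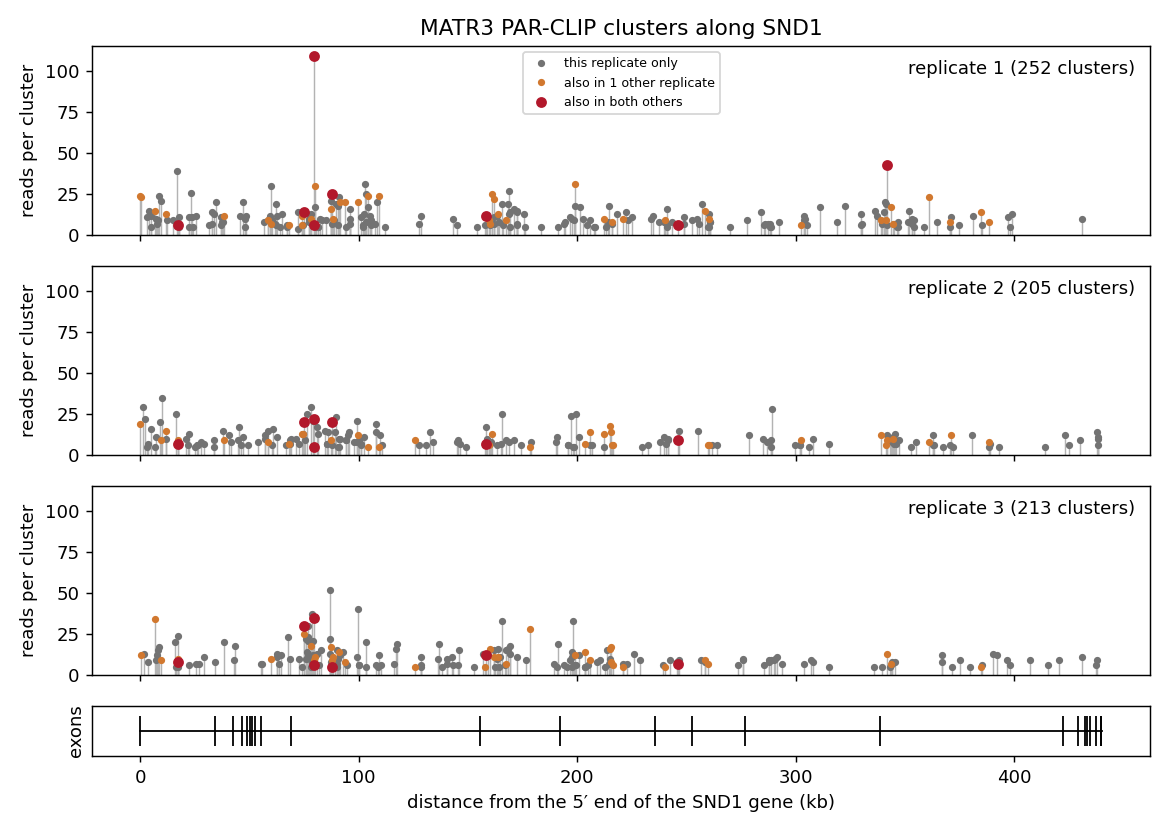
Each point is a cluster of SND1, placed by the distance of its midpoint from the 5′ end of the gene in kb, with its reads on the vertical axis and 1 panel for each replicate. Colours give the number of other replicates with an overlapping cluster, and the lowest panel marks exons. The clusters reach along the whole gene and thin out toward the 3′ end, and the highest point is site 1 in replicate 1 with 109 reads.

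Clusters were denser toward the 5′ end of the gene. When the gene was divided at its middle, the 5′ part held 166, 141 and 157 clusters in replicates 1, 2 and 3, and the 3′ part held 86, 64 and 56. Every count of the 5′ part was above every count of the 3′ part. The density was 7.02 clusters per 10 kb ± 0.58 against 3.12 ± 0.71 (SD, n = 3). The difference of 3.91 clusters per 10 kb ± 0.59 had the same sign in all 3 replicates and exceeded their spread (exact two-sided sign-flip p = 0.25, the smallest that 3 replicates allow). By reads the contrast was larger, with 75.2% ± 5.39 of the reads in the 5′ part against 69.5% ± 3.96 of the clusters (SD, n = 3). Clusters there also had more reads each, with medians of 10, 9 and 10 against 8 in every replicate.

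**Figure D3:**
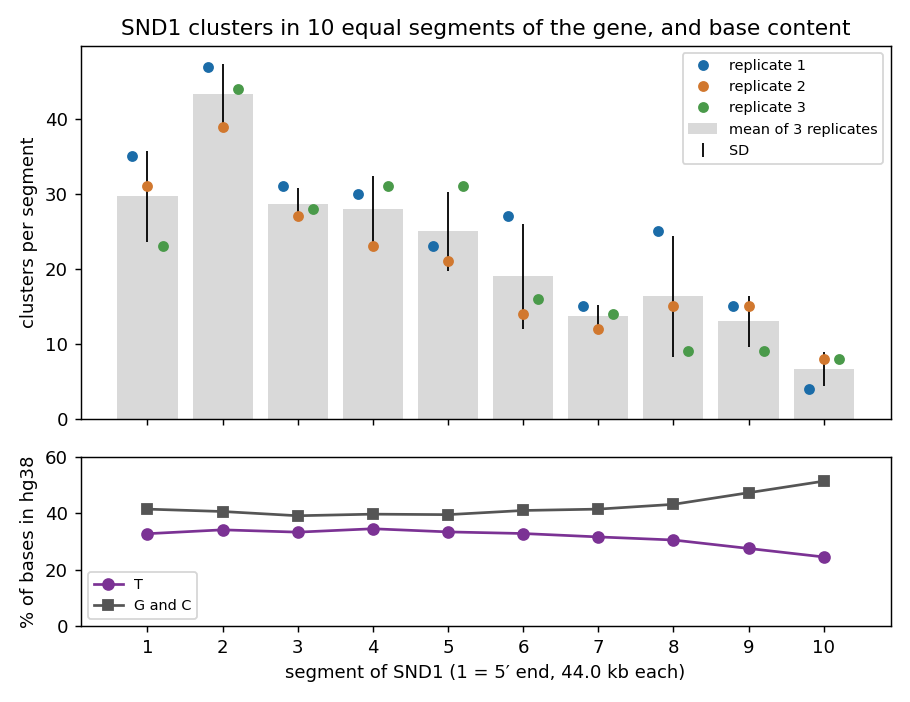
Upper panel, clusters in each of 10 equal segments of SND1 (44 kb each, from 5′ to 3′), as points for the replicates, bars for their mean and lines for the SD. Lower panel, the share of T and of G plus C in the same segments. Segment 2 is highest with a mean of 43.3 clusters and segment 10 lowest with 6.67, and T falls from 34.1% to 24.5% between them.

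The decline was not even along the gene. Of 10 equal segments, segment 2 had 47, 39 and 44 clusters, more than any other in each replicate. Segment 10 had 4, 8 and 8, fewer than any other in each. In windows of 20 kb the counts of the replicates were similar, with Pearson's r of 0.764 to 0.807 and Spearman's rho of 0.664 to 0.717 between pairs across 22 windows of one gene, which are not independent. The windows from 60 to 80 kb and from 80 to 100 kb from the 5′ end were the densest, with 24, 20 and 31 and with 25, 24 and 24 clusters. The window from 120 to 140 kb had only 2, 5 and 7 clusters. It lies in intron 10, as does the window from 80 to 100 kb, whereas that from 60 to 80 kb begins upstream of this intron. T made up 33.7% of the bases of the sparse window, which was picked after its values were seen, and 34.3% and 32.7% of those of the dense ones. Across all 22 windows the mean number of clusters rose with T content (Pearson's r 0.486, Spearman's rho 0.543, as a description).

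The base content of the gene also changed from end to end. T made up 33.6% of the 5′ part and 29.4% of the 3′ part, and G plus C made up 40.1% and 44.8%. The share of positions at which the 20 bases that follow occur once in the genome, a measure of how easily short reads can be placed, was 84.5% and 87.9%, so it was higher where clusters were fewer. The part of base content in the decline was not tested. Without intron 10, the longest, the difference in density was 3.77 clusters per 10 kb, and per 10 kb of positions with a unique 20-mer it was 4.76, both settings chosen after seeing the data.

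**Figure D4:**
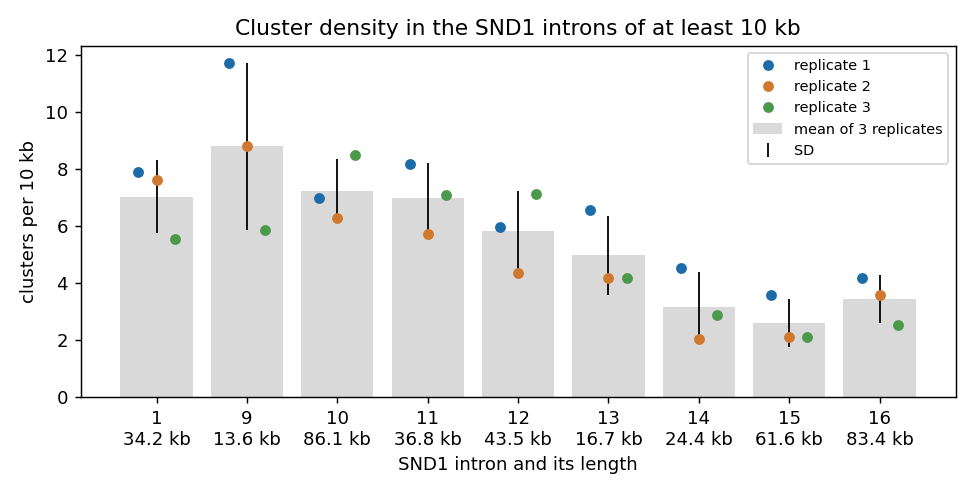
Clusters per 10 kb in the 9 SND1 introns of at least 10 kb, in their order along the gene, with points for the replicates, bars for the mean and lines for the SD. Introns 1 to 12 have means from 5.83 to 8.80, and introns 14 to 16 from 2.60 to 3.44.

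The 9 introns of at least 10 kb make up 90.9% of the gene and held 94.0% ± 2.55 of the clusters (SD, n = 3). Intron 10, of 86.1 kb, had 60, 54 and 73 clusters, the most of any intron in each replicate. It had 7.24 clusters per 10 kb ± 1.13 (SD, n = 3). Intron 16, nearly as long at 83.4 kb, had 35, 30 and 21 clusters, or 3.44 per 10 kb ± 0.85 (SD, n = 3). The densities of introns 10 and 16 did not overlap between any replicates, and T made up 33.4% and 27.4% of their bases. Intron 14 had 11, 5 and 7 clusters, at 3.15 per 10 kb ± 1.25 (SD, n = 3), with T at 33.9%, as high as in intron 10. Intron 9, of 13.6 kb, had the highest mean of the long introns, at 8.80 ± 2.93 (SD, n = 3), but its range over replicates, from 5.87 to 11.7, overlapped those of introns 1, 10, 11, 12 and 13.

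The 14 shorter introns together held 12, 17 and 7 clusters, and 6 of them had none in any replicate. The longest intron without a cluster was 2437 nt. Intron 18, of 3222 nt, had exactly 1 cluster in each replicate, with 10, 9 and 11 reads. Intron 22, of 2144 nt near the 3′ end, had 0, 4 and 2 clusters, a spread as large as its mean.

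SND1 clusters were mostly deep within introns, but introns of at least 10 kb make up 90.9% of the gene. Positions spread evenly over it would also lie far from splice sites, and no median was computed for them. Introns of all lengths are pooled here. The median distance to the 3′ splice site was from 29643 to 31854 nt, and to the 5′ splice site from 11759 to 13129 nt. Within 500 nt of a 3′ splice site lay 2 clusters in each replicate, or 0.800%, 0.980% and 0.943% of intron clusters, although 2.54% of intron sequence lies that near. Within 500 nt of a 5′ splice site lay 5, 3 and 4, or 2%, 1.47% and 1.89%, nearer to that share of sequence. Within 1000 nt the 5′ side had 2.80%, 4.90% and 2.83% and the 3′ side 2.40%, 3.92% and 2.83%, against 4.95% of intron sequence.

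An excess of clusters in the 5′ part was found in many long genes. Among 638 genes of at least 100 kb with at least 20 clusters in every replicate, 73.8% had over 50% of their clusters in the 5′ part, and the median was 62.1%. SND1, with 65.9%, 68.8% and 73.7% in replicates 1, 2 and 3, ranked 234 among them. The 3 comparison genes had nearly equal parts, at 52.6% ± 4.06 for ANKRD11, 52.2% ± 2.58 for TBCD and 51.5% ± 3.92 for GRB10 (SD, n = 3). Every SND1 value was above every value of these 3 genes.

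Few SND1 clusters recurred between replicates. Clusters that overlapped one of another replicate by at least 1 nt numbered 50 of 252, 42 of 205 and 43 of 213, or 20.2% ± 0.32 (SD, n = 3). The same share over intron clusters of all nuclear genes was 21.2%, 21.0% and 22.4%, so SND1 was close to this background. Clusters that overlapped both other replicates numbered 8, 7 and 7, or 3.29% ± 0.12 (SD, n = 3), against 2.42%, 2.53% and 2.52% over all intron clusters. Among intron clusters alone the SND1 share in at least 1 other replicate was 19.7% ± 0.46, while it was 36.6% ± 4.97 in ANKRD11, 30.0% ± 0.49 in TBCD and 36.7% ± 0.89 in GRB10 (SD, n = 3). The 3 comparison genes have from 8.98 to 11.5 intron clusters per 10 kb against 5.04 in SND1, and the part of this density in their recurrence was not tested.

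Recurrence was measured a second way that can be set against the space the clusters fill. The midpoint of an SND1 cluster fell inside a cluster of another replicate in 5.16% to 11.3% of cases, depending on the pair, with a mean of 8.11%. The clusters of that other replicate covered from 2.13% to 2.72% of the gene. That share supposes an even spread along the gene, whereas the replicates were denser in similar parts of it. The part of this unevenness in the gap was not tested. Of the 596 sites, 535 were found in 1 replicate, 53 in 2 and 8 in all 3. Of the 8, 4 lay in intron 10 and 1 each in introns 1, 11, 13 and 16. Intron 10 held 23.8%, 26.3% and 34.3% of all SND1 clusters in replicates 1, 2 and 3, and 8 sites are too few to set against this.

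Recurrent clusters were longer than others. Their median length was 52.5, 42 and 43 nt in replicates 1, 2 and 3, against 39, 39 and 37 nt for clusters found once, and a longer cluster has more room to overlap. They had a median of 4 distinct reads in each replicate, against 3. Conversion per T was 10.4% ± 0.78 in recurrent clusters and 10.3% ± 0.027 in the others (SD, n = 3), a difference within the spread. ATCTT occurred 2.27 times per 1000 nt ± 1.20 in recurrent clusters and 2.34 ± 0.37 in the others (SD, n = 3), also within the spread.

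Conversion in SND1 was compared with the intron clusters of all other nuclear genes, since conversion was not used to choose the gene. Per T position, counted over all reads, 10.2%, 10.1% and 10.5% were converted in SND1 intron clusters, against 10.5%, 11.1% and 11.2% elsewhere. SND1 was lower in each replicate, with differences of -0.26, -0.96 and -0.69 percentage points. Their mean of -0.64 ± 0.35 exceeded the spread (exact two-sided sign-flip p = 0.25). Here and below this spread is between replicates and not between genes. Among 952 genes with at least 20 intron clusters in every replicate, the quartiles of conversion were 9.91% and 11.6%. The SND1 mean of 10.3% lay between them. The share of reads with at least 1 T-to-C change went the other way, at 89.9%, 88.2% and 90.0% in SND1 and 87.6%, 86.8% and 88.0% elsewhere. That difference was 1.92 percentage points ± 0.44 (exact sign-flip p = 0.25). Against genes of at least 100 kb alone it was 0.198 (exact sign-flip p = 0.75).

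Within SND1 conversion per T was lower in the 5′ part, from 9.84% to 10.3% over the replicates, than in the 3′ part, at 10.8%, 11.1% and 11.2%. The values of the 2 parts did not overlap. Clusters of the 5′ part also had more reads, as given above, and the part of read number was not tested.

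**Figure D5:**
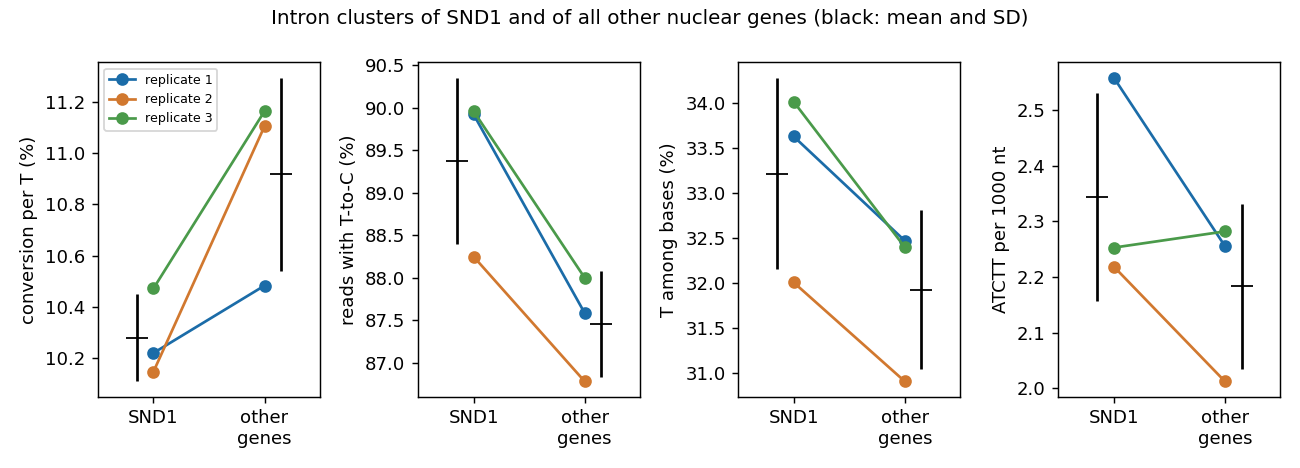
Values for intron clusters of SND1 and of all other nuclear genes in each replicate, joined by lines, with mean and SD in black. The panels give conversion per T, reads with T-to-C, T among bases and ATCTT per 1000 nt, and the axes do not start at 0. Conversion per T is lower in SND1 in 3 of 3 replicates, the next 2 measures are higher in 3 of 3, and ATCTT is higher in 2 of 3.

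The sequence of SND1 clusters was compared both with other genes and with the gene's own introns. T made up 33.6%, 32.0% and 34.0% of the bases of SND1 intron clusters and 32.5%, 30.9% and 32.4% elsewhere. SND1 was higher in each replicate, by 1.29 percentage points ± 0.28 on average, which exceeded the spread (exact sign-flip p = 0.25). Against genes of at least 100 kb alone the difference was 0.012 (exact sign-flip p = 1). Against SND1's own introns, with T at 31.6%, each replicate's clusters were higher, by a mean of 1.63 percentage points ± 1.07 (SD, n = 3; exact sign-flip p = 0.25). The 2 parts of the gene were described over all their clusters, those of exon 1 included. In the 5′ part, where most clusters lie, T was 33.3%, 32.5% and 34.4% in clusters against 33.6% of all bases. It was below the latter in 2 of 3 replicates. The exon 1 clusters had from 15.7% to 22.7% T, and intron clusters of the 5′ part alone were not compared. In the 3′ part clusters had 33.4%, 30.7% and 32.1% T against 29.4% of all bases, above it in each replicate. The 200 nt on each side of the clusters had 33.3% ± 0.30 T, the same as the clusters within the spread.

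The larger shift from the gene's introns was in C and A. C made up 24.3% ± 0.28 of cluster bases, 20.8% of intron bases and 21.2% ± 0.43 of the flanks, while A made up 21.9% ± 0.43, 26.1% and 24.9% ± 0.38 (SD, n = 3). C and T together were 57.6% ± 0.98 in SND1 clusters and 57.5% ± 0.85 elsewhere (SD, n = 3), a difference of 0.090 percentage points ± 0.41 within the spread (exact sign-flip p = 0.75). The median cluster length, at 40, 39 and 38 nt, differed from that elsewhere by 0.333 nt ± 1.15, also within the spread (exact sign-flip p = 1).

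ATCTT was found in 26, 21 and 21 SND1 intron clusters, or 10.2% ± 0.26, against 9.69% ± 0.36 of intron clusters of other genes (SD, n = 3). Its density was 2.34 per 1000 nt ± 0.19 in SND1 clusters and 2.18 ± 0.15 elsewhere (SD, n = 3), a difference of 0.160 ± 0.17 within the spread (exact sign-flip p = 0.5). In the introns of SND1 it occurred 1.55 times per 1000 nt, below each of the replicate values of 2.56, 2.22 and 2.25. Its reverse complement, AAGAT, went the other way, at 0.634 per 1000 nt ± 0.18 in the clusters against 1.22 in the introns. The motif was therefore more frequent in clusters than in the gene only in its sense orientation. Listed clusters have at least 2 conversion locations and so must hold T on the RNA strand, and ATCTT has more T than AAGAT. The part of this selection in the strand difference was not tested.

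The pyrimidine motifs showed the same strand difference, with the same limit, since their reverse complements hold no T. TTTCT was in 27.2%, 24.0% and 23.6% of SND1 intron clusters, against 20.8% ± 1.30 elsewhere (SD, n = 3), and occurred 6.23 times per 1000 nt ± 0.44 against 3.90 in the gene's introns. TCTTC was in 16.3% ± 2.57 of clusters, against 16.0% ± 0.69 elsewhere (SD, n = 3), and occurred 4.05 times per 1000 nt ± 0.70 against 1.95 in the introns. Letters at the ends of these motifs are shared, so their matches can overlap. Their reverse complements GAAGA and AGAAA had 0.992 ± 0.13 and 1.23 ± 0.15 per 1000 nt in clusters and 1.52 and 2.28 in the introns. CACGT was in 0, 1 and 0 SND1 clusters, against 1.34% ± 0.091 of intron clusters elsewhere (SD, n = 3). Among the 8 sites found in every replicate, ATCTT was present in 2, TCTTC in 3 and TTTCT in 3, and 5 had at least 1 of the 4 motifs. These sites had a median length of 92 nt, against 39 nt for sites in 1 replicate, and a longer site has more room for a match. The same counts over other sites are not given here, so nothing is read from these. A match is a description of the letters and not a binding site.

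SND1 clusters lay in sequence that can be placed in the genome. Of their 20-mers 93.5% ± 0.46 occurred once in hg38 (SD, n = 3), against 86.1% of those in the gene's introns. Clusters without any unique 20-mer numbered 3, 1 and 2. Of intron 20-mers 5.75% had over 100 copies, as abundant repeats do, against 1.20%, 1.20% and 0.545% of those in clusters. How reads with several matches were handled is not given in the sources used here.

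By 6 measures of intron clusters (density, reads per distinct read, conversion per T, median length, T share and ATCTT density), SND1 was an average gene apart from its density. Among 952 genes it ranked 528 for reads per distinct read, 594 for conversion, 520 for length, 468 for T share and 421 for ATCTT density. The genes nearest to it, by Euclidean distance over these measures in SD units across genes, were XRCC5 at 0.349, NUDT3 at 0.395 and CHSY1 at 0.459. XRCC5 encodes a subunit of the Ku heterodimer of DNA end joining, NUDT3 a diphosphoinositol polyphosphate phosphohydrolase and CHSY1 a chondroitin synthase. XRCC5 is 98.8 kb long and had 5.50 intron clusters per 10 kb, close to the 5.04 of SND1, with conversion of 10.2% against 10.3%. ANKRD11, TBCD and GRB10 were far from SND1, at 4.05, 3.70 and 2.73. Their clusters had 26.7%, 26.7% and 29.6% T against 33.2% in SND1. They had 1.20, 0.778 and 1.66 ATCTT per 1000 nt against 2.34, and median lengths of 49.3, 46.8 and 46.3 nt against 39 nt.

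Genes for proteins known to bind or work with SND1 were examined from a list of 16. Clusters in every replicate were found for 13 of them, in 2 replicates for 2 and in none of the files for 1, whereas 38.9% of protein-coding genes had clusters in every replicate. The median over all 16 genes of the list, the gene without clusters included, was 86.3 normalised reads. Over protein-coding genes with any cluster it was 34.9, so the 2 sets were not formed alike. Expression and length were not matched, so nothing is read from this excess. CREBBP, a histone acetyltransferase that acts as a coactivator, had 94, 90 and 110 clusters and 898 normalised reads ± 95.2 (SD, n = 3). AGO2, the slicer of the RNA-induced silencing complex, had 72, 79 and 70 clusters and 859 normalised reads ± 113 (SD, n = 3). Both were below every SND1 value. MTDH, whose product binds SND1 in tumour cells, had 112 normalised reads ± 12.3, and ADAR, the editing enzyme of double-stranded RNA, 282 ± 99.3 (SD, n = 3). PRPF8, SNRNP200 and EFTUD2, components of the U5 snRNP, had 79.2 ± 46.6, 70.5 ± 27.2 and 217 ± 31.0 normalised reads (SD, n = 3). Of the transcription factors, MYB had 6, 3 and 0 clusters, STAT6 had 1, 0 and 1, and STAT5A had 0 in each.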

How the data were processed

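MATR3 PAR-CLIP clusters came from 3 biological replicates of wild-type HEK293 cells, called per replicate. Reads, distinct reads, conversion events and conversion locations are raw counts per cluster, per the file headers. The deposited T-to-C fraction of a cluster's reads runs from 0 to 1 and was multiplied by the reads and rounded. The conversion specificity is deposited on a log10 scale and was not used in any result. The build is hg38, per the submitters' processing notes, and all 670 SND1 sequences equalled hg38 at their coordinates. The aligner, caller and annotation release are not given in the sources used here. The lowest numbers listed are 4 reads and 2 conversion locations.

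Exons are those of ENST00000354725 in GENCODE 44, and clusters were placed by midpoint. Conversion per T is converted events divided by converted plus unconverted ones, summed over clusters. Differences were tested within replicates by exact two-sided sign-flip tests, of which there were 8, and none can fall under 0.25 with 3 replicates, so no adjustment could bring one under 0.05. Copies of 20-mers were counted on both strands of hg38 chromosomes. The scripts were tested on simulated data and run in Python 3.11.15 with numpy 2.4.6, pandas 2.3.3 and numba 0.67.0. Reads carry no molecular identifiers. The gene, lists, motifs and comparison genes were chosen with earlier results of these data known. Named were SND1, its neighbours in read order, 3 comparison genes, genes within it, the 3 nearest genes, the list of partners, the leading clusters, and the first 6 sites found in every replicate. The share of clusters in the 5′ part of other genes, the windows of 20 kb and the conversion of the gene's 2 parts were added after the values were seen. Alternatives were stricter cluster sets, other comparison genes, medians or weighting by reads, other overlaps, and leaving out each replicate.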

Additional observations from a re-analysis of the deposited data

How the results depend on the processing

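Of 94 values recomputed over 12 results, 71 kept their direction or stayed within the spread between replicates, 9 changed sign and 14 moved by more or came to 0. Lower conversion per T and denser clusters in the 5′ part kept their direction under every alternative run. So did higher T content than in other genes or in the gene's own introns. The T difference from other genes shrank to 0.012 percentage points against genes of at least 100 kb. Within the 5′ part, all clusters together, those of exon 1 included, had less T than that part's bases in 2 of 3 replicates. Stricter cluster sets for, and replicates left out of, the level, the partner genes and the intron share were added after seeing the data. Over the replicates the median SND1 cluster has 3 to 4 distinct reads. Fewer clusters or replicates entered under some alternatives, and the cause of the changes was not tested. No paired analysis was possible because there is no other group of libraries to pair these with. Genes and gene ends were compared within each replicate.

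At or above the median number of reads per cluster, the difference in median length was -0.500 nt, that in ATCTT density -0.27 per 1000 nt, recurrence 18.05% and the intron share 99.0%. With at least 3 conversion locations, length differed by -1 nt, recurrence was 21.6% and the intron share 99.2%. With at least 3 distinct reads, length differed by -0.667 nt, ATCTT by -0.030, recurrence was 21.5% and the intron share 99.2%. Against ANKRD11, TBCD and GRB10 length differed by -8.33 nt. Against genes of at least 100 kb the share of C and T differed by -0.84 percentage points and ATCTT by -0.10. The T-to-C read share, taken as a cluster median, differed by 0. Recurrence was 9.89% where 50% of each cluster had to overlap and 33.2% with gaps of up to 50 nt. Leaving out 1 replicate gave 0 to 1 nt for length and -0.13 to 0.289 percentage points for C and T. Recurrence was then 9.33% (without replicate 1) to 13.5% (without replicate 3). Only 1 other replicate was left to overlap in that setting, so the share of a given replicate could not rise.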
